A study of Drosophila melanogaster with 20 samples.

Results

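The sarcomere and muscle genes examined here are 34 of the 14081 genes measured. They were chosen by symbol, as genes of the thick filament, the thin filament, the Z disc, the titin-like proteins and muscle calcium handling, with the actin genes left out. RNA was sequenced from whole 4-day-old larvae of the fruit fly Drosophila melanogaster, kept at 25 °C, in 4 groups of 5 libraries that share the wDah background. The control larvae carried no named change. The other groups were genomically engineered in CG4743, which encodes the carrier that brings the methyl donor S-adenosylmethionine (SAM) into mitochondria: I172G (genotype DmSAMC.I172G), called mild, P223L (DmSAMC.P223L), called severe, and SAMC-null (DnSAMC.M1fs;M39*), also called severe. The labels give 1 genotype per group and do not say how many independent lines stand behind it, or whether its libraries are separate cultures. P-values here therefore measure only the spread between these libraries, and an effect of the carrier and any other difference between the strains cannot be told apart.

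In the sarcomere, the contractile unit of striated muscle, thick filaments of myosin pull on thin filaments of actin that are anchored at the Z disc. Calcium released from the sarcoplasmic reticulum binds troponin C, and troponin and tropomyosin then expose the myosin sites on actin. Titin-like proteins tie the filaments together, and in the larva the body wall muscles that drive crawling grow by adding sarcomeres.

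Each value below is a normalised read count, the authors' deposited measure of a gene's RNA in a library. Of the 34 genes, 33 reached a value of 10 in enough libraries to be tested in at least 1 comparison, and TpnC4, a troponin C gene of adult flight muscle, did not, with values from 0 to 5.77 in all 20 libraries. The other genes differed widely in level. Per kilobase of annotated exon, control means ran from 1.14 normalised counts for Zasp67 to 107197 for the myosin light chain gene Mlc2, with Mhc at 65424 and Mp20 at 54947. The low genes TpnC4, Zasp67, fln, TpnC41C and Scp1 had control means of 25.2 or less.

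Taken as a sum, the 34 genes held 7.39 ± 0.518% of a control library's normalised counts (SD, n = 5 here and below). The share was 6.41 ± 0.138% for I172G larvae, 5.02 ± 0.144% for P223L larvae and 3.7 ± 0.0803% for SAMC-null. The summed values were 2513488 ± 189279 (control), 2226553 ± 126587 (I172G), 1282181 ± 44161 (P223L) and 826812 ± 11471 (SAMC-null). Every P223L library (1225892 to 1344085) lay below every control library (2214173 to 2715817), and every SAMC-null library (817169 to 840038) lay below every P223L library. In RNA of whole larvae, fewer muscle cells and less of this RNA per muscle cell cannot be told apart.

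The carrier gene CG4743 was looked at first. It was measured at 93.5, 124, 125, 149 and 133 normalised counts in control, at 144, 159, 199, 191 and 166 in I172G larvae, at 249, 196, 184, 200 and 205 in P223L and at 121, 121, 90.4, 117 and 113 in SAMC-null. It was higher in P223L (log2 fold change 0.73, SE 0.13, adjusted p = 0.000218) and I172G (0.46, SE 0.14, adjusted p = 0.0285), and not called in SAMC-null (-0.14, SE 0.14, adjusted p = 0.346). The labels give no expected level for I172G or P223L, and a frameshift with a stop need not lower a transcript. These levels therefore check none of the labels. The summed normalised counts ran from 22090000 to 22850000 per library in SAMC-null, 24790000 to 26080000 in P223L, 32990000 to 36610000 in I172G and 33210000 to 35430000 in control, a gap that moves with the groups. With every library rescaled to the same sum, the median log2 fold change over all tested genes moved from -0.06 to 0.35 in P223L and from -0.06 to 0.54 in SAMC-null, and the share of calls that were higher from 46.2% to 65.5% and from 46.7% to 69.2%.

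Against control, most sarcomere and muscle genes fell in both severe lines. In P223L, 25 of the 31 tested members were lower and 2 higher, where 78.7% of the 12208 tested genes were called (42.4% lower and 36.3% higher). The same 25 and 2 did so without any overlap between the libraries, as did 37.2% (lower) and 31.0% (higher) of all tested genes. In SAMC-null, 26 of 32 were lower and 2 higher, where 81.7% of the 12252 tested genes were called (43.5% lower and 38.2% higher). There 24 members were lower and 2 higher without overlap, against 38.6% and 33.3% of all tested genes. Members fell further than the tested genes as a whole: their median log2 fold change was -1.04 in P223L and -1.60 in SAMC-null, against -0.06 for all tested genes in both. At least 2-fold lower were 18 members in P223L, where 23.3% of all tested genes were called that far down, and 23 in SAMC-null, where the share was 25.1%. With equal library sums, 24 members were lower and 4 higher in P223L (median -0.63), where 28.7% of all tested genes were lower and 54.7% higher. In SAMC-null 22 were then lower and 6 higher (median -1.0), against 26.9% and 60.6%. The low gene TpnC41C is among those called in both lines and passed the filter on low values mainly through its control libraries. Its SAMC-null call (-1.10, adjusted p = 0.0178) was lost without control replicate 1 (adjusted p = 0.0534) and with equal library sums (-0.53, adjusted p = 0.197).

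**Figure D1:**
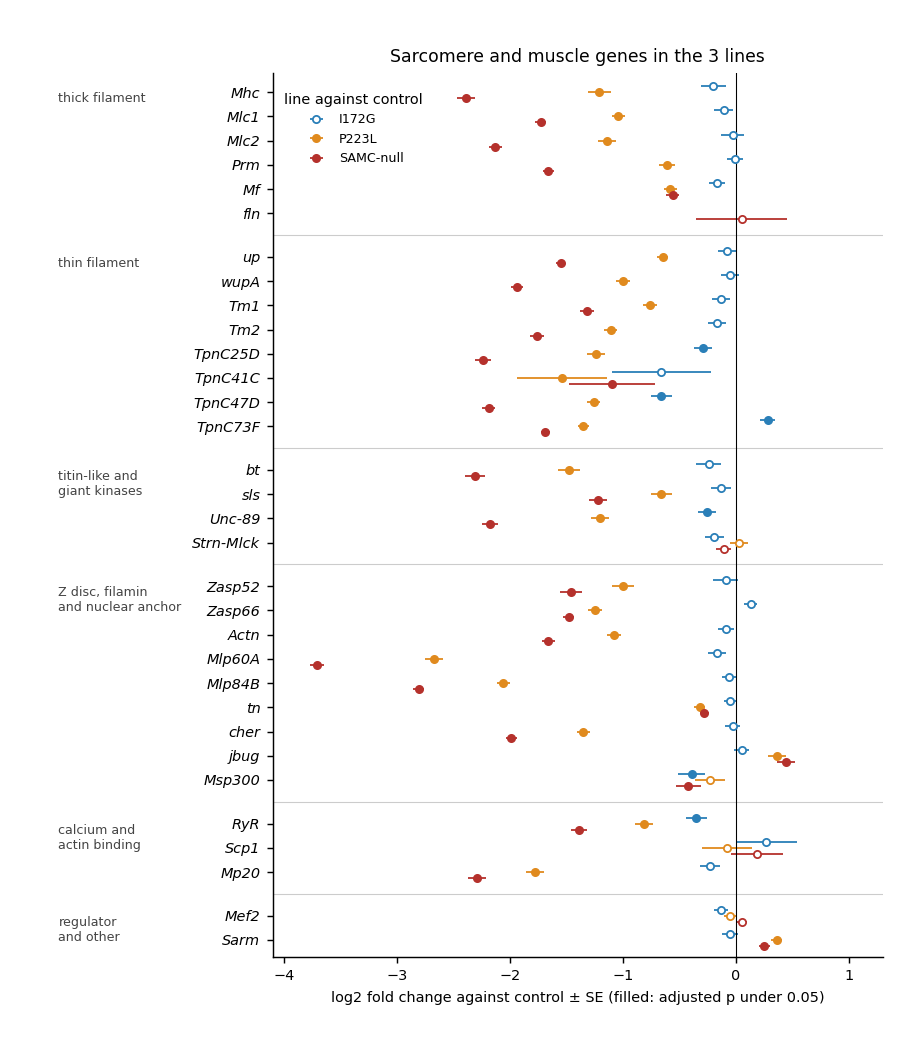
Log2 fold change against control (horizontal axis) of the tested sarcomere and muscle genes (vertical axis, by role) in I172G, P223L and SAMC-null, with standard errors as bars and filled points where the adjusted p was under 0.05. Most points of P223L and SAMC-null lie left of 0 and those of I172G lie near 0, with Mlp60A farthest left at -2.67 and -3.71. With equal library sums tn turned to 0.09 in P223L and 0.32 in SAMC-null.

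The mild line stood nearer to control. In I172G, 5 of 31 tested members were lower and 1 was higher, where 32.2% of the 12253 tested genes were called (17.6% lower and 14.6% higher), so the members were called no more often than genes in general. Their median log2 fold change was -0.13, against -0.03 for all tested genes. No member passed 2-fold, where 5.66% of all tested genes were that far down and 1.8% up. With equal library sums 10 were lower and 1 higher, against 18.7% and 11.5% of all tested genes. The 5 were TpnC47D, Msp300, RyR, TpnC25D and Unc-89, and the gene that rose was TpnC73F. The count of lower members rested on single libraries: it was 3 without control replicate 1, 2 without control replicate 2, 8 without control replicate 4, 3 without control replicate 5, and 3 without I172G replicate 4 or 5. The 3 comparisons with control share the same control libraries.

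The thick filament carried the largest amount of this RNA in control. Of its members, Mhc, Mlc1, Mlc2, Prm and Mf fell in both severe lines, and the low gene fln was tested only in SAMC-null (log2 fold change 0.05, adjusted p = 0.91). Mhc, the only muscle myosin heavy chain gene of the fly (FBgn0264695, BDGP6.54 chromosome 2L, 16766566 to 16788766, plus strand), was measured at 636246, 622621, 593745, 504788 and 605632 in the control libraries, 483853, 545550, 534483, 529982 and 482769 in I172G larvae, 263921, 254654, 269108, 255111 and 236627 in P223L, and 113130, 113665, 114278, 113483 and 107388 in SAMC-null. Control and I172G overlapped, and the P223L and SAMC-null libraries lay below them and apart from each other. Mhc fell by a log2 fold change of 1.21 in P223L (SE 0.10, adjusted p = 1.42e-07), to 43.2% of the control mean, and fell by 2.39 in SAMC-null (SE 0.08, adjusted p = 6.64e-11), to 19.0%. In I172G its log2 fold change was -0.20 (SE 0.11, adjusted p = 0.183).

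The light chains moved with it. Mlc2, the regulatory light chain, fell (log2 fold changes -1.14 in P223L and -2.13 in SAMC-null), and Mlc1, the essential light chain, fell (log2 fold changes -1.04 and -1.73 in P223L and SAMC-null). Paramyosin, the core protein of invertebrate thick filaments, is encoded by Prm (FBgn0003149, chromosome 3L, 8732858 to 8745310), with 41858, 39069, 37206, 35982 and 36463 in control, 35860, 40353, 39142, 39122 and 35077 in I172G larvae, 26323, 25183, 26545, 25377 and 21898 in P223L, and 11812, 12129, 12144, 12677 and 11308 in SAMC-null. Prm kept 65.8% of its control mean in P223L and 31.5% in SAMC-null, and was higher in P223L than in SAMC-null by 1.06 (SE 0.05, adjusted p = 1.64e-10), with no overlap between the lines.

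Mf, which encodes myofilin, a thick filament protein of insects, departed from this order. It was measured at 75153 to 85196 in control, 63492 to 75477 in I172G larvae, 51558 to 56236 in P223L and 50671 to 57702 in SAMC-null. The severe lines lay below control and overlapped each other. Mf fell (log2 fold changes -0.58 in P223L and -0.56 in SAMC-null), the latter turning to 0.04 (adjusted p = 0.519) with equal library sums, and the difference between the severe lines was -0.02 (SE 0.04, adjusted p = 0.791), which became -0.21 (adjusted p = 0.00101) with equal library sums. The gene for flightin, fln, which is abundant in adult flight muscle, stayed at 1.69 to 15.8 in all 20 libraries.

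**Figure D2:**
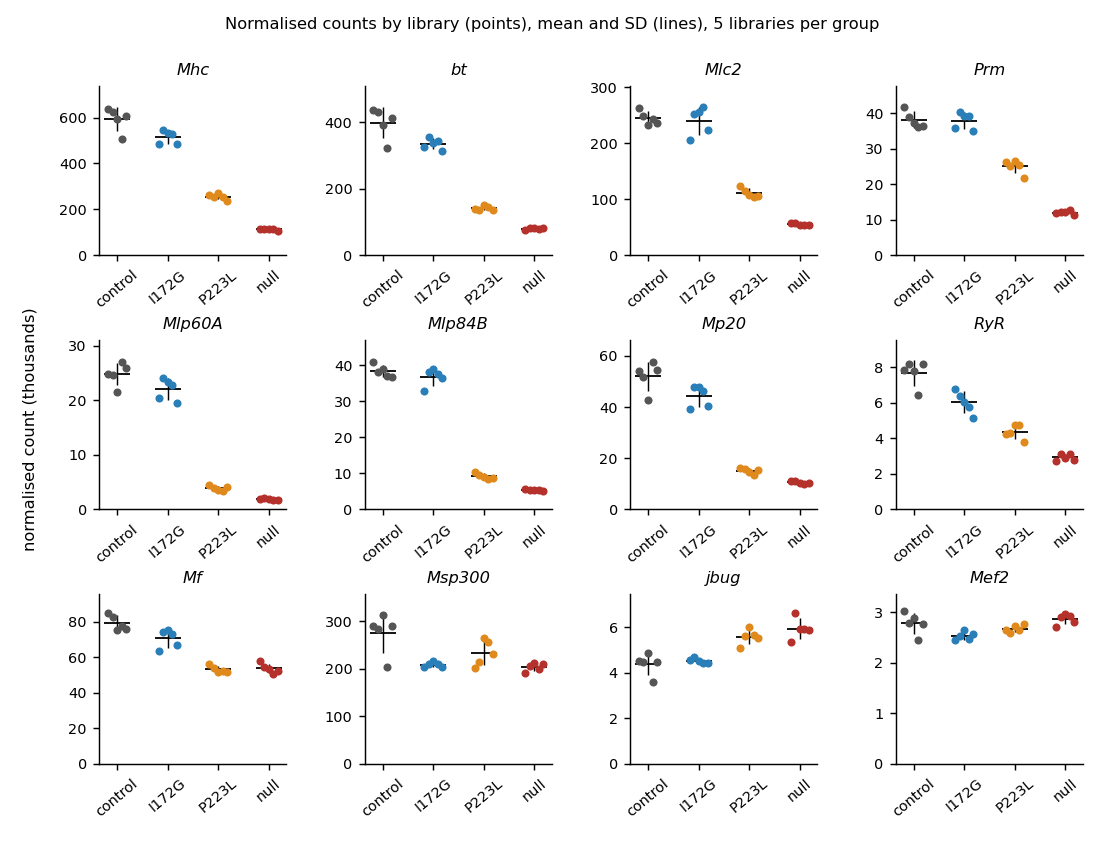
Normalised count (vertical axis, in units of 1000, from 0) of 12 sarcomere and muscle genes in each library of control, I172G, P223L and SAMC-null (null), with the mean and SD of 5 libraries. Mhc, bt, Mlc2, Prm, Mlp60A, Mlp84B, Mp20 and RyR step down from control to P223L to SAMC-null, while in Mf, Msp300, jbug and Mef2 the severe lines overlap.

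All 8 tested thin filament members were called lower in P223L and in SAMC-null, as were 42.4% and 43.5% of all tested genes. They include the low gene TpnC41C, which passed the filter mainly through its control libraries. Its SAMC-null call was lost with equal library sums (limma, adjusted p = 0.197). Tm1 encodes a tropomyosin, also made in forms outside muscle, and lies beside the second tropomyosin gene, Tm2, on chromosome 3R (Tm1 15278220 to 15308779, Tm2 15310193 to 15315197). Tm1 was measured at 85232, 80132, 74078, 78023 and 80177 in control, 64451, 76960, 77277, 77687 and 68806 in I172G larvae, 50411, 47771, 47377, 46166 and 43845 in P223L, and 34703, 31879, 31498, 31172 and 30046 in SAMC-null. The severe lines were below all other libraries and apart from each other. Tm1 fell by 0.76 in P223L (SE 0.06, adjusted p = 1.27e-07) and fell by 1.32 in SAMC-null (SE 0.06, adjusted p = 4.46e-10), and Tm2 fell (log2 fold changes -1.11 and -1.76 in P223L and SAMC-null). Of the troponin subunits other than troponin C, up, the troponin T gene, fell (log2 fold changes -0.65 in P223L and -1.55 in SAMC-null), as did wupA, the troponin I gene (-1.0 and -1.94).

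Troponin C, the calcium sensor, is encoded by 5 member genes, and only 3 of them had more than 50 normalised counts in any library. TpnC73F (FBgn0010424, chromosome 3L, 17046063 to 17048390) was measured at 25994, 23545, 22574, 22843 and 23297 in control, 24970, 31574, 29803, 30186 and 27474 in I172G larvae, 9876, 9378, 9149, 9104 and 8924 in P223L, and 7336, 7382, 7514, 7134 and 7214 in SAMC-null. TpnC47D (FBgn0010423, chromosome 2R, 11273845 to 11275286) was measured at 12908, 12428, 10558, 12172 and 12470 in control, 7266, 8212, 8762, 7972 and 6312 in I172G larvae, 5577, 5208, 4865, 4698 and 4893 in P223L, and 2806, 2685, 2672, 2521 and 2549 in SAMC-null. In I172G the pair thus moved in opposite directions: TpnC73F rose by 0.28 (SE 0.07, adjusted p = 0.0148), with 4 of 5 libraries above every control library, and TpnC47D fell by 0.66 (SE 0.09, adjusted p = 0.000563), with every library below control. TpnC47D was the only member whose I172G and control libraries did not overlap, where 8.0% of all tested genes were lower and 10.1% higher without overlap. TpnC25D fell by 0.29 in I172G (adjusted p = 0.0239), a call lost without control replicate 2 (adjusted p = 0.0592).

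A gene's share of the summed counts of the 5 troponin C genes does not depend on how libraries are scaled against each other. TpnC73F held 61.8, 59.7, 62.5, 58.9 and 59.9% in control, 71.8, 74.2, 71.5, 73.8 and 76.0% in I172G larvae, 58.1, 58.2, 59.6, 60.4 and 59.1% in P223L, and 67.0, 68.4, 69.2, 69.1 and 69.2% in SAMC-null. The I172G and SAMC-null libraries were above all control and P223L libraries. The mean share was higher than in control by 12.9 points in I172G and by 8.06 points in SAMC-null (exact permutation test, two-sided, p = 0.00794 for each, the smallest that 252 splits allow, adjusted p = 0.018 over 25 tests). In P223L it differed from control by -1.47 points (exact p = 0.111, adjusted p = 0.185). Most of the difference lay in TpnC47D, with 31.0 ± 1.09% for control, 19.6 ± 1.45% for I172G larvae, 32.1 ± 0.65% for P223L larvae and 24.8 ± 0.492% for SAMC-null, and TpnC25D held 8.43%, 6.87%, 8.81% and 6.49%. The severe lines also differed from each other in this mix, by -9.53 points of TpnC73F in P223L against SAMC-null (exact p = 0.00794, adjusted p = 0.018).

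**Figure D3:**
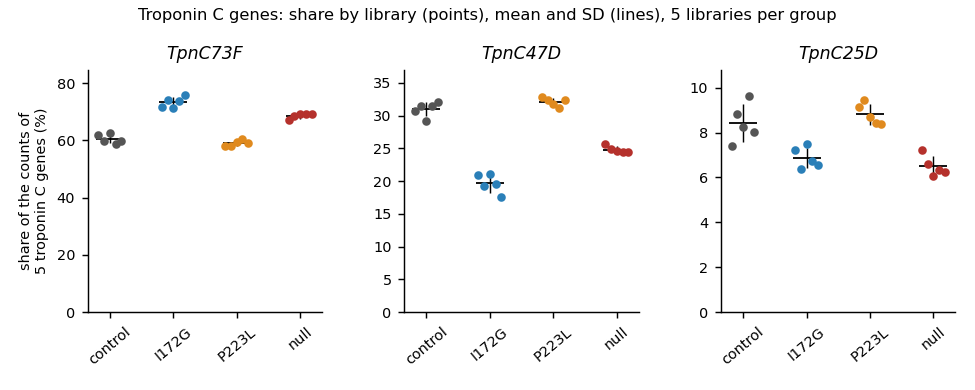
Share of TpnC73F, TpnC47D and TpnC25D in the summed normalised counts of 5 troponin C genes (vertical axes, percent, from 0) in each library, with the mean and SD of 5 libraries per group. TpnC73F is at 71.5 to 76.0% in I172G and 67.0 to 69.2% in SAMC-null, above control (58.9 to 62.5%) and P223L (58.1 to 60.4%).

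Among the titin-like proteins and giant kinases, 3 of 4 fell in both severe lines, where 42.4% (P223L) and 43.5% (SAMC-null) of all tested genes were lower. Projectin, a titin-like protein, is encoded by bt (FBgn0005666, chromosome 4, 724400 to 776474). It was measured at 437269, 431439, 391430, 322616 and 412512 in control, 325448, 356972, 337528, 344801 and 314069 in I172G larvae, 139938, 136683, 152122, 146350 and 134923 in P223L, and 77330, 81236, 81265, 79274 and 81060 in SAMC-null. P223L and SAMC-null stood apart from each other and below the rest, and bt fell by 1.48 (SE 0.10, adjusted p = 2.4e-08) and fell by 2.31 (SE 0.09, adjusted p = 1.65e-10). The gene sls, which encodes the titin-like protein Sallimus (kettin is a product of it), fell less (log2 fold changes -0.66 and -1.22 in P223L and SAMC-null). Unc-89, the obscurin gene of the M band, fell (log2 fold changes -1.20 and -2.18 in P223L and SAMC-null), and fell by 0.26 in I172G (adjusted p = 0.0312), a call lost in 7 of 10 fits that left out 1 library (adjusted p from 0.00124 to 0.0764 over the 10), namely those without control replicate 1, 2, 3 or 5 or I172G replicate 3, 4 or 5.

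Strn-Mlck, a kinase gene of the same role named after myosin light chain kinases, was not called in any line against control. It was measured at 12890, 12536, 12180, 9785 and 10988 in control, 10410, 10675, 10035, 9653 and 10193 in I172G larvae, 12000, 12069, 12499, 12195 and 10769 in P223L, and 11095, 11580, 10353, 10871 and 10112 in SAMC-null. All 3 lines overlapped with control. Its log2 fold change was 0.03 in P223L (SE 0.08, adjusted p = 0.691) and -0.11 in SAMC-null (SE 0.07, adjusted p = 0.197), which became 0.45 and 0.50 with equal library sums.

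The deepest falls of any member were those of Mlp60A and Mlp84B. The Z disc, filamin and nuclear anchor members as a group did not fall deepest. Their median log2 fold changes were -1.08 in P223L and -1.48 in SAMC-null, against -1.18 and -1.72 for the thin filament. Mlp60A and Mlp84B encode muscle LIM proteins and were listed here with the Z disc. Mlp60A (FBgn0259209, chromosome 2R, 24074602 to 24078223) was measured at 24736, 24572, 21587, 26958 and 25839 in control, 20437, 24152, 23276, 22796 and 19568 in I172G larvae, 4528, 3999, 3555, 3402 and 4024 in P223L, and 1991, 2029, 1872, 1743 and 1793 in SAMC-null. Mlp84B (FBgn0014863, chromosome 3R, 7112850 to 7117732) was measured at 40916, 38232, 38935, 36886 and 36823 in control, 32709, 38125, 39068, 37583 and 36438 in I172G larvae, 10322, 9640, 8894, 8522 and 8797 in P223L, and 5786, 5421, 5504, 5487 and 5140 in SAMC-null. In both genes control and I172G overlapped and each severe line was separate. Mlp60A fell by 2.67 in P223L (SE 0.08, adjusted p = 4.07e-11) and fell by 3.71 in SAMC-null (SE 0.06, adjusted p = 3.66e-13), to 15.8% and 7.62% of the control mean. Mlp84B fell (log2 fold changes -2.06 and -2.81 in P223L and SAMC-null), to 24.1% and 14.3%.

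The scaffold proteins of the Z disc fell by less. Actn, the alpha-actinin gene, fell (log2 fold changes -1.08 and -1.66 in P223L and SAMC-null), and 20.7% of its exon bases are shared with other genes, most on the opposite strand. Zasp52, which encodes a PDZ and LIM domain partner of alpha-actinin, fell (log2 fold changes -1.0 and -1.46 in P223L and SAMC-null), and Zasp66 (-1.25 and -1.48). Zasp67, known from flight muscle, had 0 to 13.6 normalised counts in all 20 libraries. The gene tn, which encodes the TRIM protein Thin of the sarcomere, fell (log2 fold changes -0.32 and -0.28 in P223L and SAMC-null), which turned to 0.09 (adjusted p = 0.0985) and 0.32 (adjusted p = 1.87e-05) with equal library sums.

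The filamin genes parted. Filamins cross-link actin, and cher, which encodes a filamin used in muscle and elsewhere, fell (log2 fold changes -1.35 in P223L and -1.99 in SAMC-null). A second filamin-type gene, jbug (FBgn0028371, chromosome 2R, 22717321 to 22740459), was measured at 4507, 4455, 4865, 3579 and 4459 in control, 4536, 4681, 4525, 4406 and 4436 in I172G larvae, 5095, 5614, 5988, 5660 and 5514 in P223L, and 5353, 6620, 5904, 5903 and 5875 in SAMC-null. Every severe library was above every control library, and jbug rose by 0.36 in P223L (SE 0.08, adjusted p = 0.000862) and by 0.44 in SAMC-null (SE 0.08, adjusted p = 0.00021).

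Msp300, a giant spectrin-repeat protein of the nesprin family that anchors nuclei in muscle, was the most abundant transcript of its role in counts and is also the longest member, with 69810 exon bases (FBgn0261836, chromosome 2L, 5100877 to 5207002). It was measured at 288756, 284253, 312542, 202762 and 290590 in control, 203269, 209842, 215907, 210405 and 203808 in I172G larvae, 201815, 214309, 264032, 256527 and 230343 in P223L, and 190717, 206362, 211338, 200113 and 210319 in SAMC-null. Control replicate 4 was at the level of the mutant lines and the other controls were above all of them. Msp300 fell by 0.39 in I172G (SE 0.12, adjusted p = 0.0286) and fell by 0.42 in SAMC-null (adjusted p = 0.00389), the latter turning to 0.18 (adjusted p = 0.134) with equal library sums. The I172G call was lost without control replicate 1, 2, 3 or 5 or I172G replicate 2, 4 or 5 (adjusted p from 0.000912 to 0.0682 over the 10 fits). In P223L the log2 fold change was -0.23 (SE 0.13, adjusted p = 0.113), and without control replicate 4 it was -0.34 (adjusted p = 0.00364).

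Of the calcium and actin binding members, Mp20 and RyR fell and Scp1 was not called. Mp20 encodes a muscle protein of the calponin family (FBgn0002789, chromosome 2R, 13246670 to 13248880), with 54194, 51727, 42576, 57399 and 54556 in control, 39304, 47875, 47665, 46385 and 40208 in I172G larvae, 16222, 15742, 14571, 13330 and 15525 in P223L, and 11148, 11088, 10363, 9954 and 10422 in SAMC-null. It fell by 1.78 in P223L (SE 0.08, adjusted p = 1.25e-09) and fell by 2.29 in SAMC-null (SE 0.08, adjusted p = 4.89e-11), with no overlap between the severe lines. RyR, the calcium release channel of the sarcoplasmic reticulum (FBgn0011286, chromosome 2R, 8860364 to 8888097), was measured at 7811, 8146, 7757, 6443 and 8159 in control, 6771, 6382, 6022, 5759 and 5162 in I172G larvae, 4264, 4297, 4749, 4768 and 3783 in P223L, and 2700, 3109, 2873, 3126 and 2793 in SAMC-null. RyR fell in all 3 lines: it fell by 0.35 in I172G (SE 0.09, adjusted p = 0.0118), fell by 0.81 in P223L (SE 0.08, adjusted p = 9.84e-07) and fell by 1.39 in SAMC-null (SE 0.07, adjusted p = 1.84e-09). Only 1 I172G library lay above the lowest control library, and in the values as deposited the severe lines did not overlap with any other group. The log2 difference of RyR between I172G and P223L was 0.46, and 0.02 (adjusted p = 0.833) with equal library sums. Scp1, a sarcoplasmic calcium-binding protein gene, stayed at 14.8 to 39.6 in all 20 libraries.

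Mef2, the transcription factor that activates many muscle structural genes (FBgn0011656, chromosome 2R, 9913496 to 9958858), was measured at 3019, 2773, 2889, 2448 and 2757 in control, 2437, 2523, 2646, 2460 and 2561 in I172G larvae, 2637, 2577, 2729, 2647 and 2762 in P223L, and 2711, 2907, 2953, 2926 and 2802 in SAMC-null. All 3 lines overlapped with control. Its log2 fold change was -0.05 in P223L (SE 0.06, adjusted p = 0.385) and 0.05 in SAMC-null (SE 0.05, adjusted p = 0.458), and with equal library sums it became 0.36 (adjusted p = 4.58e-05) and 0.65 (adjusted p = 6.71e-08). Sarm, listed under the symbol Ect4 in the deposited tables (FBgn0262579, chromosome 3L, 8063874 to 8108897), encodes a TIR domain protein known from axon degeneration and is no part of the sarcomere. Sarm was measured at 9551, 9340, 9390, 8188 and 9399 in control, 7857, 8485, 9909, 8872 and 9249 in I172G larvae, 11088, 11634, 11867, 12170 and 11887 in P223L, and 10250, 10995, 10966, 11317 and 10857 in SAMC-null. Every severe library was above every control library, and Sarm rose by 0.36 in P223L (SE 0.05, adjusted p = 3.22e-05) and by 0.25 in SAMC-null (SE 0.05, adjusted p = 0.000527). The summed counts of 8 neuronal markers went from 11448 to 14244 in control to 23434 to 27354 in P223L and 25180 to 26672 in SAMC-null. Of these 8, 6 were called higher in each severe line (36.3% and 38.2% of all tested genes) and 2 were not called. The part of the neuronal markers in the result for Sarm was not tested.

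The severe lines were then compared with each other, with no control involved. Of 31 tested members, 25 were higher in P223L than in SAMC-null and 1 was lower, where 47.4% of the 11168 tested genes were called (22.4% higher and 25.1% lower). The median log2 difference was 0.58, against -0.02 for all tested genes, and 22 members were higher in P223L without overlap and 0 lower, against 16.4% and 17.5% of all tested genes. With equal library sums, 21 members were higher and 4 lower, against 10.5% and 52.0%, the median over all tested genes was -0.21, and the share of calls that were higher went from 47.2% to 16.8%. The widest gaps were in Mhc at 1.19 (SE 0.05, adjusted p = 2.19e-11), Prm at 1.06 and Mlp60A at 1.04. The gene that was lower was Mef2, at -0.10 (SE 0.03, adjusted p = 0.03), a call lost without P223L replicate 1, 2 or 4 or SAMC-null replicate 2, 3 or 4 (adjusted p from 0.0115 to 0.0812 over the 10 fits).

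Between I172G and P223L, 25 of 31 tested members were higher in I172G and 3 lower, where 80.8% of the 12029 tested genes were called (42.9% higher and 38% lower). The 25 include the low gene TpnC41C (0.87, adjusted p = 0.046, limma). That call was lost in 7 of 10 fits that left out 1 library (adjusted p from 0.0385 to 0.169). Without overlap 24 members were higher and 3 lower, against 37.7% and 33.0%. The median log2 difference was 0.92, against 0.05 for all tested genes. With equal library sums, 19 members were higher and 6 lower, against 28.3% and 56.3%, the median over all tested genes was -0.39, and the share of calls that were higher went from 53.0% to 33.4%. The widest gaps were in Mlp60A at 2.50 (SE 0.08, adjusted p = 2.86e-11), Mlp84B at 1.99 and TpnC73F at 1.63, and the 3 lower genes were Sarm at -0.41, jbug at -0.30 and Strn-Mlck at -0.22.

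Across the 4 groups, the means of 20 of the 33 members tested were ranked downward in the order control, I172G, P223L and SAMC-null, a pattern that 12.3% of 12639 genes showed. This ranks means only. The step from control to I172G was called lower for 5 of 31 tested members (17.6% of all tested genes). It was -0.01 in Prm and -0.03 in Mlc2 and cher, none of them called. In 22 of the 33, every SAMC-null library was below every P223L library, and every P223L library was below every control and I172G library, which held for 5.40% of the genes. This order is that of the values as deposited. With equal library sums the difference between I172G and P223L was no longer called for RyR (0.02, adjusted p = 0.833), up (0.12, adjusted p = 0.056) and sls (0.10, adjusted p = 0.176), nor that between P223L and SAMC-null for Zasp66 (0.05, adjusted p = 0.433). The 22 include Mhc, both light chains, Prm, the troponin and tropomyosin genes other than TpnC4 and TpnC41C, bt, sls, Unc-89, Zasp52, Zasp66, Actn, Mlp60A, Mlp84B, cher, RyR and Mp20. The abundant members outside it were Mf, tn, Msp300, Strn-Mlck, jbug, Mef2 and Sarm.

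The make-up of the members' summed RNA differed between the groups. Mhc went from 23.6 ± 0.469% of the members' counts in control to 23.1 ± 0.145% in I172G larvae, 20 ± 0.496% in P223L and 13.6 ± 0.318% in SAMC-null. The share of bt went from 15.8% in control to 15.1%, 11.1% and 9.68% in the same order. Msp300 held a larger share in the severe lines while its level was not higher there, with 10.9 ± 1.3% in control, 9.39 ± 0.359% in I172G larvae, 18.2 ± 1.75% in P223L and 24.6 ± 0.87% in SAMC-null, and in SAMC-null it held the largest share of any member. Mf made up 3.16% in control and 6.49% in SAMC-null. These shares follow from the levels above and were not tested.

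**Figure D4:**
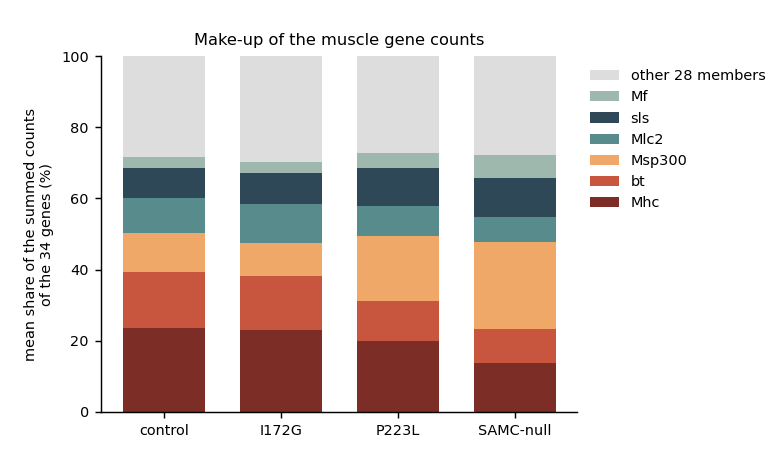
Mean share of the summed normalised counts of the 34 sarcomere and muscle genes (vertical axis, percent, 5 libraries per group) held by Mhc, bt, Msp300, Mlc2, sls, Mf and the other 28 members in control, I172G, P223L and SAMC-null. The share of Mhc goes from 23.6% in control to 13.6% in SAMC-null and that of Msp300 from 10.9% to 24.6%.

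Genes with other roles in muscle varied more by list. Their counts stand against 42.4% lower and 36.3% higher of all tested genes in P223L and 43.5% and 38.2% in SAMC-null, or, with equal library sums, 28.7% and 54.7%, and 26.9% and 60.6%. Closest were 8 genes of muscle energy supply, also active in other tissues, all of which fell in P223L (median log2 fold change -1.45) and in SAMC-null (median -1.53), and all 8 still did with equal library sums (medians -1.04 and -0.92). Argk, the arginine kinase that buffers ATP in invertebrate muscle, went from 203494 to 220963 normalised counts in control to 26110 to 32049 in P223L and 10334 to 12176 in SAMC-null. Its log2 fold change was -2.93 in P223L (SE 0.07) and -4.27 in SAMC-null (SE 0.06), while its I172G value was -0.01 (adjusted p = 0.944). The glycolytic gene Pglym78 fell (log2 fold changes -1.73 and -2.08 in P223L and SAMC-null), and Ald1, an aldolase gene, changed by -1.55 and -1.63.

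Calcium handling and excitation genes split. Of 15 tested, 8 were lower and 5 higher in P223L (42.4% and 36.3% of all tested genes), and 8 lower and 6 higher in SAMC-null (43.5% and 38.2%), shares near those of genes in general. These counts became 5 lower and 7 higher, and 5 lower and 10 higher, with equal library sums. The 15 include Sln, which is Silnoon, a transporter gene, with the authors' log2 fold changes of 2.27 in P223L and 2.68 in SAMC-null. SERCA, the pump that returns calcium to the sarcoplasmic reticulum, fell by 1.18 in P223L (SE 0.08, adjusted p = 2.13e-08) and fell by 1.85 in SAMC-null (SE 0.07, adjusted p = 2.52e-10). The sarcolamban genes SclA and SclB, which encode small peptides that regulate that pump, fell (log2 fold changes -1.05 and -1.81 in P223L, -1.71 and -2.52 in SAMC-null). SERCA, SclA and SclB were also lower in I172G, by log2 fold changes of -0.26, -0.29 and -0.30. In I172G, 7 of the 15 genes were lower and 1 higher, against 17.6% and 14.6% of all tested genes. The calcium-activated potassium channel gene slo rose (log2 fold changes 1.29 and 1.38 in P223L and SAMC-null).

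All 7 genes of the dystrophin complex, which links the cytoskeleton to the matrix at the muscle membrane, were higher in both severe lines, with medians of 0.93 and 1.16, or 1.34 and 1.76 with equal library sums. The syntrophin gene Syn1 went from 274 to 324 normalised counts in control to 661 to 816 in P223L and 846 to 974 in SAMC-null, and Syn2 rose (log2 fold changes 2.02 and 2.29 in P223L and SAMC-null). Of 20 tested genes of muscle specification and fusion, 11 were higher and 4 lower in P223L (36.3% and 42.4% of all tested genes), and 11 higher and 3 lower in SAMC-null (38.2% and 43.5%). With equal sums these became 13 and 1 (54.7% and 28.7% of all tested genes), and 15 and 1 (60.6% and 26.9%). Among them kirre and sns, which encode adhesion proteins of myoblast fusion, rose by 1.74 and 1.06 in P223L and by 1.96 and 1.24 in SAMC-null. Several of these genes also act in neurons. The sum of the 8 neuronal markers, of which none was at 0 in any group, was 11127 to 12710 in I172G. That sum was higher in the severe lines, as given with Sarm, while 2 of the 8 were not called in each. The part of the neuronal markers in these results was not tested.

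Of 18 attachment and integrin adhesion genes, 7 were higher and 5 lower in P223L (36.3% and 42.4% of all tested genes), and 8 higher and 5 lower in SAMC-null (38.2% and 43.5%), so the higher share was near that of genes in general. That split became 15 and 2, and 13 and 2, with equal library sums. Pax, the paxillin gene, fell (log2 fold changes -1.57 and -1.85 in P223L and SAMC-null) and the integrin alpha gene if (-0.83 and -1.13), while Tsp, the thrombospondin of tendon attachment sites, rose (log2 fold changes 1.53 and 1.83 in P223L and SAMC-null). Of 12 genes of thin filament length and assembly, 3 were higher and 4 lower in P223L and 4 higher and 4 lower in SAMC-null, shares at or below those of all tested genes (36.3% and 42.4%, and 38.2% and 43.5%). They became 8 and 2, and 10 and 1, with equal library sums. Here tsr, the cofilin gene, fell (log2 fold changes -0.92 and -1.03 in P223L and SAMC-null), and sals, which sets thin filament length, changed by -0.57 and -0.62, the latter -0.01 (adjusted p = 0.803) with equal library sums. Myosin regulation and other motors, mostly of non-muscle myosin, had 4 of 5 genes higher and 0 lower in P223L (36.3% and 42.4% of all tested genes). In SAMC-null 4 were higher and 1 lower, at -0.18 (38.2% and 43.5%). With equal library sums 5 of 5 were higher in each, against 54.7% and 60.6% of all tested genes. Mbs, a myosin phosphatase subunit gene, was at 0.59 and 0.73. Of 7 genes of the muscle glutamate receptors, 4 were lower and 2 higher in both lines, not far from the shares of all tested genes (42.4% and 36.3%, and 43.5% and 38.2%), and 3 and 3 with equal library sums. GluRIID and GluRIIE, whose products are needed in every such receptor, fell (log2 fold changes -1.10 and -0.92 in P223L, -1.07 and -1.36 in SAMC-null).

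**Figure D5:**
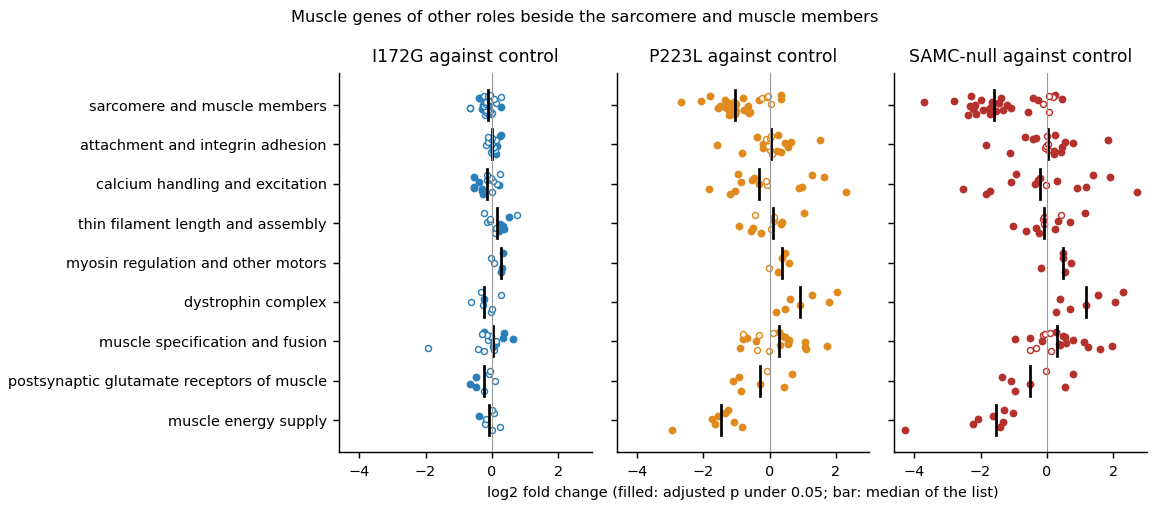
Log2 fold change against control (horizontal axis) of single genes (points, filled where the adjusted p was under 0.05) in the sarcomere and muscle members and 8 other lists of muscle genes, with the median of each list as a bar. In the severe lines the medians of the sarcomere members (-1.04 and -1.60) and of muscle energy supply (-1.45 and -1.53) lie left of 0 and those of the dystrophin complex (0.93 and 1.16) lie right of it.

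Markers of other larval tissues moved in the same libraries. The summed counts of 7 fat body markers went from 4077570 to 4868929 in control to 157987 to 164339 in P223L and 67165 to 81250 in SAMC-null. Those of 6 epidermis and cuticle markers went from 320841 to 589710 in control to 319 to 472 and 169 to 275. Of these 6, 5 were tested in each severe line. Cpr49Aa was at 0 in both lines, but its log2 fold changes by the authors, -1.22 and -1.6, were within their SE of 1.82. Hemocyte markers were at 28803 to 36682 in control, 8115 to 9162 in P223L and 6945 to 7713 in SAMC-null, and tracheal markers at 24767 to 30233, 14841 to 16148 and 12625 to 13675. Single tracheal markers went both ways, with log2 fold changes of -1.63 to 1.14 in P223L and -2.17 to 1.22 in SAMC-null. Gut markers were at 222227 to 277061 in control, 120984 to 164184 in I172G larvae, 83033 to 104789 in P223L and 69366 to 74693 in SAMC-null. They too went both ways singly, with log2 fold changes of -5.39 to 3.16 in P223L and -5.98 to 2.6 in SAMC-null. Testis markers were at 1336 to 3106 in control and 375 to 474 and 393 to 473 in the severe lines, with Mst84Dc and ocn at 0 in both and Mst98Ca at 0 in SAMC-null. Single fat body markers fell unevenly, with log2 fold changes of -16.53 to -1.71 in P223L and -17.47 to -2.83 in SAMC-null. In the authors' values apolpp changed by -1.71 and -2.83, and Lsp2 by -15.48 and -16.5. Tested epidermis and cuticle markers spanned -12.18 to -4.67 and -14.93 to -5.04. These sums therefore do not measure how much of a tissue was present. Whether the groups were at the same larval stage was not tested. The part of these tissue markers in the falls of the sarcomere and muscle genes was not tested either.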

How the data were processed

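Ribosomal RNA was removed from whole-larva RNA and read pairs of 75 bases were sequenced, per the labels. The submitters' processing notes name Salmon 0.11.3, DESeq2 1.26.0 and BDGP6. Their order and settings are not given in the sources used here. Each of the 3 deposited tables sets a line beside control and gives, for 14081 genes, a signal per library, a normalised read count. They also hold the authors' log2 fold change, its p-value and a score, a Wald statistic that equals the excess of the log2 fold change over 1 divided by its standard error, so the authors' p-value tests for changes beyond 2-fold. Control columns agree between the tables within 0.005. Among low values, 52.8 to 81% per library lay within 0.1 step of a whole read, so no read counts were recovered and no count model was used. Summed normalised counts ran from 22090000 to 36610000 per library, while the labels state 3000000 reads. The depth in reads is thus unknown.

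Log2(value + 1) was fitted with limma 3.58.1 (R 4.3.3) with an intensity trend, separately for each of 5 comparisons of 5 against 5 libraries. A gene entered a comparison if 5 or more of its 10 libraries reached a value of 10. Two-sided p-values received a Benjamini-Hochberg adjustment across every gene in the comparison, and calls were made under 0.05. Standard errors (SE) are those of log2 fold changes on this scale, which understates changes of low genes. Troponin C shares were compared by an exact permutation test, adjusted over 25 tests. The fit was tested on simulated data. Groups and replicate numbers came from the labels.

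The members and gene lists were chosen with earlier results of these data known. By rule, values of every library are given for the member with the highest mean in each role and for the called members with the 3 largest increases and 3 largest decreases in each comparison (mean of at least 50). All other members are described by ranges or fold changes. From each other list, genes were named among the up to 4 with the smallest adjusted p. In the lists, 7 symbols (Cg25C, Ca-P60A, Csq, Unc-45, Mlck, Wasp and aret) were not found, and the listed Sln is Silnoon, a transporter gene. Coordinates are from Ensembl release 115 (BDGP6.54). Reads of overlapping genes on opposite strands may not be told apart, since the strand setting is not given in the sources used here. Alternatives were other pseudocounts (0.5 and 4), other filters (none and 50), rescaling by median ratios or to equal library sums, each library left out, a replicate block, all 4 groups in 1 fit, limma's treat and the authors' test. Figures were drawn with matplotlib 3.10.9 (Python 3.11.15) from tables made with pandas 2.3.3 and numpy 2.4.6.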

Additional observations from a re-analysis of the deposited data

Results flagged for a closer look

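In 12 of 124 pairs of member and group, 1 of the 5 libraries lay far from the other 4 by Dixon's test, which flags about 1 group in 20 by chance. Control replicate 4 accounted for 4 of them and was the low library each time: Msp300 was at 202762 normalised counts (284253 to 312542 in the others), Unc-89 at 19454 (24523 to 25704), RyR at 6443 (7757 to 8159) and Sarm at 8188 (9340 to 9551). Without that library, 8 members were lower and 1 higher in I172G, 26 and 2 in P223L, and 27 and 2 in SAMC-null. Control replicate 1 was high in TpnC73F, at 25994 (22574 to 23545), and in Scp1, at 29.3 (18.9 to 21.7).

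In SAMC-null, Mhc was low in replicate 5, at 107388 (113130 to 114278), wupA high in replicate 1, at 15116 (13893 to 14206), cher high in replicate 2, at 11456 (10546 to 10680), and Scp1 high in replicate 5, at 39.6 (20.1 to 22.8). TpnC41C was high in I172G replicate 2, at 31.6 (8.51 to 12.8), and Strn-Mlck low in P223L replicate 5, at 10769 (12000 to 12499).

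The lines differed directly in 26 of 31 tested members between P223L and SAMC-null, by limma's adjusted p, where 47.4% of all tested genes were called. Between I172G and P223L they differed in 28 of 31, where 80.8% of all tested genes were called. TpnC73F moved in opposite directions against control, 0.28 in I172G and -1.35 in P223L on the log2 scale, and the difference between these lines was 1.63.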

How the results depend on the processing

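Over 156 values of single members, both pseudocounts changed no call, no filter changed 2 and median-ratio rescaling 1. The filter of 50 changed none of the 145 values it left. Treat changed 75, all by loss of the call, and equal library sums changed 6 by loss, 13 by gain and 11 by direction. Equal sums gave 10 lower members in I172G, 4 higher in P223L, 6 higher in SAMC-null, 4 lower for P223L against SAMC-null and 6 lower for I172G against P223L. Over all genes they gave 6673 higher in P223L, 7420 higher and 3296 lower in SAMC-null, 1170 higher and 5803 lower for P223L against SAMC-null, and 3405 higher for I172G against P223L. Directions turned in Mef2 (0.36) and tn (0.09) in P223L, in Mf (0.04), Msp300 (0.18), Strn-Mlck (0.50) and tn (0.32) in SAMC-null, in Msp300 (0.00), Sarm (-0.08) and Strn-Mlck (-0.05) for P223L against SAMC-null, and in Mf (-0.03) and tn (-0.17) for I172G against P223L. This setting removes the gap between library sums by its construction.

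The replicate numbers did not pair the libraries: deviations of same-numbered libraries correlated at -0.214 to 0.0957 over 25 pairs. The replicate block gave 0 members higher and 3 lower in I172G, and 1377 genes lower over all genes. With all 4 groups in 1 fit, 12 members were lower in I172G, and for P223L against SAMC-null 0 members and 1852 genes were lower, as were 0 members there after median-ratio rescaling. The cause was not tested.

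Tests for changes beyond 2-fold called fewer by their construction. With treat, I172G had 0 members higher and 0 lower (19 and 42 of all genes), P223L 0 and 10 (1165 and 2303), SAMC-null 0 higher (1358 and 2535), P223L against SAMC-null 1 and 0 (127 and 65), and I172G against P223L 7 and 0 (2170 and 1342). In the authors' deposited test, members higher and lower were 0 and 0 in I172G and 0 and 11 in P223L, and 0 were higher in SAMC-null.

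Leaving out 1 library at a time gave 1 to 2 members higher and 2 to 8 lower in I172G, with 1348 to 2926 genes lower over all genes. For P223L against SAMC-null it gave 0 to 2 members lower, and a difference in the share of TpnC41C of -0.0577 to -0.0349 points against -0.0491 (exact permutation test, adjusted p from 0.018 to 0.0916). In the severe lines against control the members lower numbered 25 to 26 in P223L and 25 to 27 in SAMC-null. The low members TpnC4, Zasp67, fln and Scp1 were untested or not called against control (with equal sums Scp1 was called in SAMC-null, 0.76), and their low values limit what could be detected.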
